A study of Homo sapiens with 54 samples.

Results

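The comparison described here follows HT-29 cells, a human colon adenocarcinoma line of epithelial origin, from 4 h to 16 h of treatment with a low concentration of tumour necrosis factor (TNF). The arrays were chosen by their titles: every array whose title gives TNF at 5 ng/ml, at 4 h or at 16 h. This gave 12 of the 54 arrays of the series, 6 at each time. At each time the 6 arrays held 2 biological replicates of 3 treatments: TNF alone, TNF with epidermal growth factor (EGF) at 1 ng/ml, and TNF with insulin at 5 ng/ml. TNF was at 5 ng/ml in all of them. All cultures of the series, untreated ones included, had been seeded at 50000 cells per cm2 and then given interferon-gamma at 200 U/ml for 24 h, so none of them shows cells without interferon-gamma. Arrays of untreated cells, which received interferon-gamma and no further factor, and of cells given TNF at 100 ng/ml alone served for comparison, with 2 arrays each at 4 h and at 16 h. The 6 low TNF arrays of 8 h showed when between 4 h and 16 h a change took place. All cultures were of 1 cell line, and their number limits the precision of each value.

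TNF binds a receptor on the cell surface that activates the transcription factor NF-kB and, from a second complex inside the cell, can activate caspase-8 and cell death. NF-kB switches on chemokine genes and the genes of its own inhibitors within the first hours. Interferon-gamma induces IRF1 and raises antigen presentation, whereas the type I interferons, interferon-beta among them, act through a complex with STAT2 and IRF9 that binds the interferon-stimulated response element (ISRE) of antiviral genes. In intestinal epithelium both cytokines are present during inflammation, and interferon-gamma is known to sensitise HT-29 cells to TNF.

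Values are MAS5 signals, which are linear and scaled per array. A change is the log2 difference of signal plus 12.49, taken as 16 h less 4 h and averaged over the 3 treatments, with ± for its standard error. The constant makes changes of dim genes smaller than the ratio of their signals. Unless another setting is named, the p of a gene is from limma's moderated test across all 54 arrays, adjusted by Benjamini and Hochberg over 13422 probe sets. A gene rose or fell only where this p was under 0.05. A gene is described by its brightest kept probe set, which left 8105 genes. The filter kept a probe set if the mean log2 value of any of the 27 groups of the series reached 7.24, so a gene that is dim in all but 1 group is among those measured. Genes named with a group are among its largest changes or are needed for its count, and 13 (ASNS, CD55, CIITA, CXCL9, EBP, EPCAM, IRF1, ISG15, MCM6, OAS1, RIGI, TNFSF10 and USP18) were chosen after their values were seen. The log2 signals of the 2 replicates of a group correlated by 0.964 to 0.976 across probe sets, and the median signal of an array was 123.4 to 146.1 at 4 h and 134.3 to 152.2 at 16 h. The log2 ratio of ACTB signal from the 3′ and the 5′ end of the transcript, a sign of RNA quality, was −0.47 to 0.33 at 4 h and −0.20 to 0.43 at 16 h, so the groups overlapped. Colon epithelial markers were bright. Of 14 such genes 11 passed the filter on low signal, and their summed signal was 64874 to 84237 at 4 h and 72844 to 94816 at 16 h, with EPCAM, an epithelial surface protein, at a median of 7440 and 6840. CDX1, CDX2 and CDH17, which mark intestinal identity, did not pass. Leukocyte markers summed to 769 to 1076 at 4 h and 996 to 1546 at 16 h. Of 15 such genes 12 were on the array and 7 passed. The leukocyte antigen PTPRC had medians of 31.2 and 8.62. Of these 7 markers the integrin gene ITGAM and CD3E rose, by 1.98 ± 0.14 and 0.76 ± 0.27, and CD14 fell by 1.04 ± 0.24. CD3E lost its call without any 1 of 6 arrays (adjusted p up to 0.095, without TNF with insulin at 16 h in replicate 2). The samples were cultures of HT-29 cells only, and the source of the signal of these marker genes was not tested. Markers of fibroblasts and endothelium summed to 1097 to 1855 and 1133 to 1474, 6 of 14 passed and none of the 6 was called.

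Between 4 h and 16 h of low TNF the type I interferon-stimulated genes rose together and the DNA replication genes fell together. Of 13422 probe sets 5256 passed, which is 39.2%, with 2728 higher and 2528 lower at 16 h. As genes, 1785 were higher and 1610 lower, or 22.0% and 19.9% of 8105, and the counts of named groups below are to be read against these shares. The lists and their members were chosen with earlier results of these data known, so their counts are a description and not a test. Counts of members that rose or fell in untreated cells are to be read against 574 higher and 383 lower of the 8105 genes there. Counts of members whose change differed from that in untreated cells are to be read against 1.96% of all genes higher and 2.15% lower. At least 2-fold changes were seen in 424 of the higher and 274 of the lower genes. In 1155 genes (14.3%) all 6 arrays of 16 h lay above all 6 of 4 h, and in 989 (12.2%) all lay below. The share of higher probe sets was 51.9% with the deposited scaling and 41.8% (2057 higher, 2864 lower) after centring each array on its median. For 20 of the 2588 genes with several kept probe sets, probe sets were called in opposite directions, and none of these genes is named here. In bulk RNA, fewer cells of a kind and less RNA per cell cannot be told apart.

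Type I interferon-stimulated genes held 9 of the 12 largest rises. RSAD2, which encodes the antiviral enzyme viperin, had signals of 54.4, 98.9 and 120 at 4 h (lowest, median and highest of 6 arrays) and of 4004, 4337 and 5151 at 16 h. This was the largest change of all genes, 5.46 ± 0.19 (n = 6 arrays per time, adjusted p = 1.06e-21), or 43.9-fold. IFIT1, which binds foreign RNA caps, had 197, 318 and 421 at 4 h and 6585, 7880 and 10139 at 16 h, and rose by 4.63 ± 0.15 (adjusted p = 4.32e-22). In both genes every 16 h array was far above every 4 h array of low TNF. IFIT2, of the same family, rose by 3.98 ± 0.27 from a median of 446 to 7643. The antiviral GTPases MX2 and MX1 rose by 3.90 ± 0.14 and 3.12 ± 0.12, the latter from 713 to 6305. LAMP3, a lysosomal membrane protein, rose by 3.87 ± 0.12, IFI44L by 3.85 ± 0.18, the DNA sensor IFI16 by 3.44 ± 0.13 and OAS2, which makes the activator of RNase L, by 3.12 ± 0.14. The adjusted p of these 7 genes was at most 4.68e-14, and in each of the 9 genes the groups did not overlap.

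**Figure D1:**
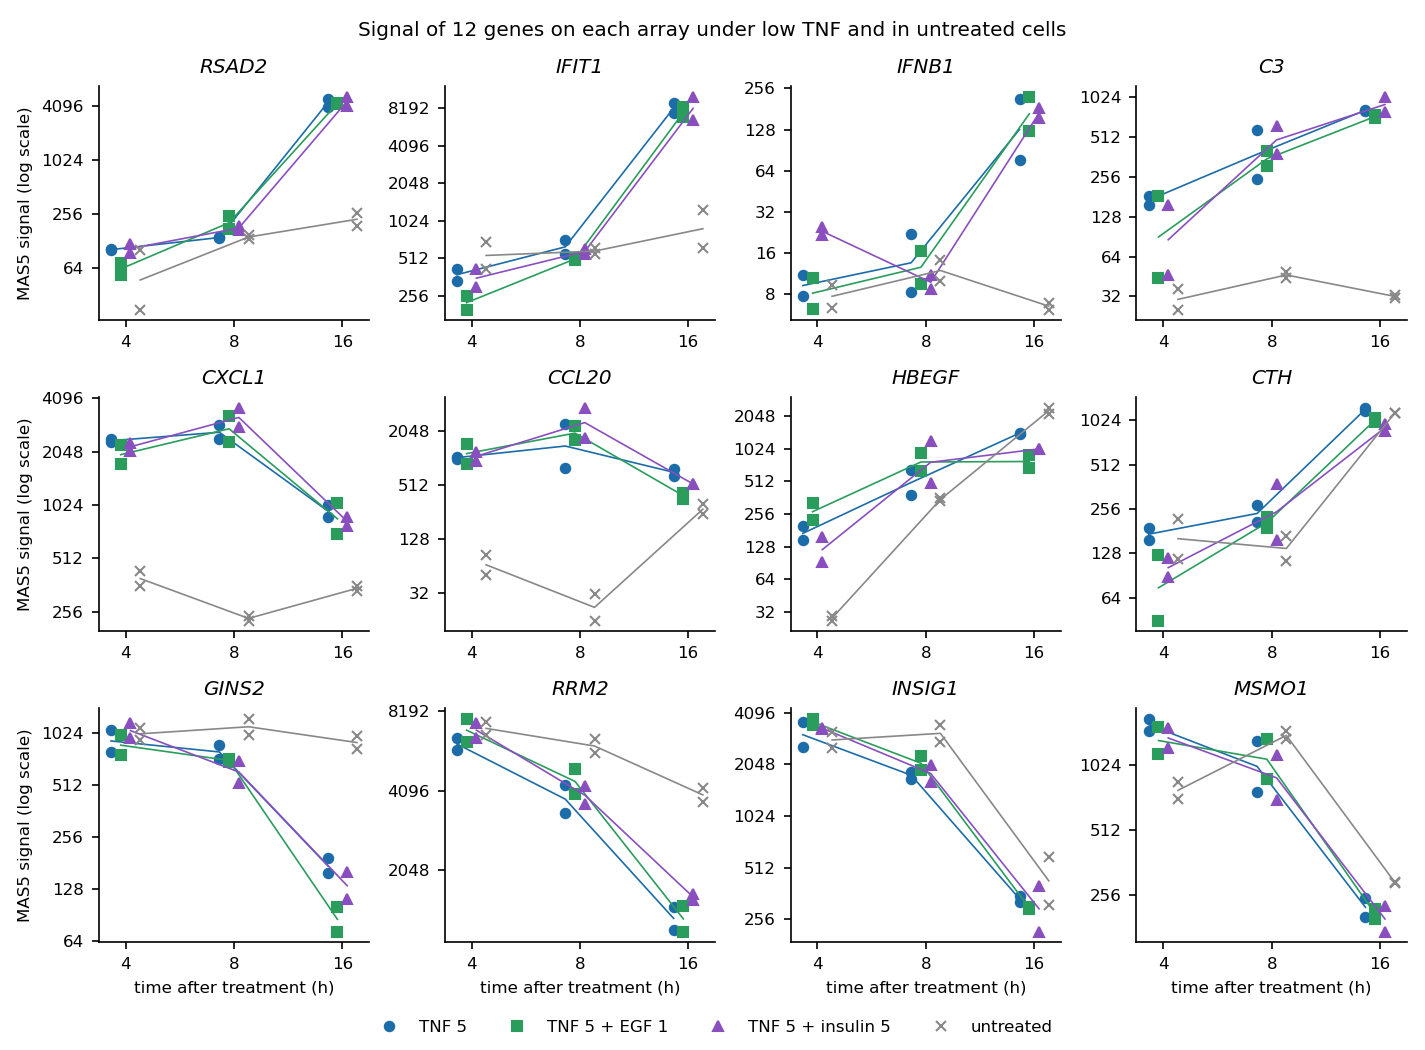
Signal of 12 genes (log axis) on each array at 4, 8 and 16 h, with 2 arrays per treatment and time and lines through their geometric means. RSAD2 and IFIT1 reached at most 242 and 717 in the low TNF arrays of 4 and 8 h and at least 4004 and 6585 in all 6 arrays of 16 h, whereas INSIG1, MSMO1, GINS2 and RRM2 were lowest at 16 h.

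Of 38 genes of the type I interferon-stimulated list 37 were on the array and passed the filter. All 37 rose, 35 of them without overlap between the groups and 31 at least 2-fold, with a median change of 2.08 against 0.03 over all genes. Most of the rise came after 8 h. The list's median was 0.48 from 4 h to 8 h and 1.60 from 8 h to 16 h. In these steps 23 and 36 members were called higher, against 377 and 1413 of all 8105 genes. The RNA sensor gene RIGI rose by 2.62 ± 0.14, OAS1 by 2.48 ± 0.11, the ISG15-removing protease USP18 by 2.08 ± 0.19 and ISG15 itself by 1.12 ± 0.13. ISG15 was already bright at 4 h, with a median of 8871. In untreated cells the list's median was 0.70, and 17 members rose and 1 fell, against 574 and 383 of all 8105 genes. The rise under low TNF was larger than that in untreated cells for 25 of 37 members, by the test of the difference, and smaller for none (22 to 26 without any 1 array); over all genes the difference was called higher in 1.96% and lower in 2.15%. RSAD2 had 22.3 and 102 in the 2 untreated arrays of 4 h and 190 and 266 in those of 16 h, which is a rise of 1.91, and the difference from low TNF was 3.55 ± 0.37 (adjusted p = 5.01e-08). IFIT1 had 418 and 692 in untreated cells at 4 h and 622 and 1250 at 16 h, with a difference of 3.93 ± 0.31 (adjusted p = 1.1e-10). For ISG15, at 0.34 ± 0.26, the difference did not pass (adjusted p = 0.664).

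The promoters of 3 of these genes are shown with their ISRE core in capitals, because the genes moved together. RefSeq windows of 300 bases (250 before and 50 after a start, GRCh38.p14) were searched on both strands for the core TTTCNNTTTC, where N is any base. Only the 250 bases before the start are printed, 5′ to 3′ on the strand of the gene. They are at chr10:89392373-89392622 for IFIT1, at chr2:6877527-6877776 for the second of the 2 starts of RSAD2 and at chr1:78620198-78620447 for IFI44L, all on the forward strand.
IFIT1: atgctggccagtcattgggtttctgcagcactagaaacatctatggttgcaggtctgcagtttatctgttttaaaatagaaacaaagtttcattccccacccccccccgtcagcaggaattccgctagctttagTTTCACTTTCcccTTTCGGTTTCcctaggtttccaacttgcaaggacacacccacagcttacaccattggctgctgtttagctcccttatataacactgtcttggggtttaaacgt
RSAD2: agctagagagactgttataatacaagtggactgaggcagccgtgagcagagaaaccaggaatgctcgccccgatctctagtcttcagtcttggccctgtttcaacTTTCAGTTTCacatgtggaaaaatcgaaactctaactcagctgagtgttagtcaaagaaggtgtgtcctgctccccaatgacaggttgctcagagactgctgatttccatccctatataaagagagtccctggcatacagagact
IFI44L: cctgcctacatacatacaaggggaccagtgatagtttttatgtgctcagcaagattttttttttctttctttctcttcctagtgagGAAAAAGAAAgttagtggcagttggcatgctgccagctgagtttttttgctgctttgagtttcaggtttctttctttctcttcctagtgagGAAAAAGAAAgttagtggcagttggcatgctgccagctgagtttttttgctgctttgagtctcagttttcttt
IFIT1 had 2 matches, 116 to 107 and 103 to 94 bases before the start, RSAD2 had 1, at 145 to 136, and IFI44L had 2 on the opposite strand. The core was found in 22 of the 29 list members in the table, or in 26 of their 38 windows (68.4%), and in 3.57% of all 35116 windows. A match says only that these letters are there. IFIT2, MX2, LAMP3 and OAS2 were not in the promoter table.

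The gene of interferon-beta itself, IFNB1, was dim at 4 h and rose late. It passed the filter only through arrays of 16 h. Its signals were 6.3, 10.9 and 24.8 at 4 h, 8.38, 10.3 and 22.2 at 8 h and 77.2, 170 and 223 at 16 h, so all 6 arrays of 16 h were above all arrays of 4 h and 8 h. The change was 2.72 ± 0.26, with −0.03 from 4 h to 8 h and 2.75 from 8 h to 16 h. Untreated cells had 6.39 and 9.42 at 4 h and 6.98 and 6.19 at 16 h, and the difference in change was 2.81 ± 0.52. Because the filter itself took in the gene by its 16 h level, both were tested with no filter on low signal (adjusted p = 1.68e-12 and 5.59e-05).

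Interferon-gamma targets and antigen presentation genes rose by smaller amounts. Of 22 measured genes of interferon-gamma targets and signalling 16 rose and 1, ICAM1, fell by 0.54 ± 0.14, with a median of 0.45. IRF7, the transcription factor that amplifies type I interferon production, rose by 2.20 ± 0.10 from a median of 1504 to 6896. The tryptophan-degrading enzyme IDO1 had 1536, 1748 and 1900 at 4 h, 3810, 4175 and 4660 at 8 h and 4254, 5250 and 6585 at 16 h. Its rise of 1.60 ± 0.12 (adjusted p = 5.84e-13) thus lay mainly before 8 h, unlike that of IFIT1. IDO1 changed by −0.25 in untreated cells, and the difference was 1.84 ± 0.24 (adjusted p = 3e-06). IRF9, a subunit of the type I interferon complex, rose by 0.99 ± 0.14. IRF1, a transcription factor induced by interferon-gamma, rose by 0.33 ± 0.10 (lost after median centring, adjusted p = 0.0546, and without TNF 5 ng/ml alone or with EGF at 16 h in replicate 2, 0.0512 and 0.0555). The chemokine CXCL10 had 17264, 20393 and 24122 at 4 h and 23418, 30237 and 35779 at 16 h, groups that overlapped, with a rise of 0.54 ± 0.15 (adjusted p = 0.00313). IFNGR1, a chain of the interferon-gamma receptor, was at −0.03 ± 0.11 (adjusted p = 0.875). The MHC class II list held 13 measured genes, of which 10 rose, HLA-DQB1 by 2.16 ± 0.17 and the class II transactivator CIITA by 0.51 ± 0.14, with a median of 0.89 against 0.66 in untreated cells. Of 18 class I and processing genes 12 rose, none 2-fold, with HLA-F at 0.81 ± 0.10 and a median of 0.47 against 0.40 in untreated cells. TAP2, at 0.95 ± 0.31, lost its call without any of 4 arrays, with adjusted p up to 0.0875. In neither MHC list did a member differ from untreated cells.

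Of 5 neutrophil chemokines 4 fell, while of 16 other chemokines and cytokines 9 rose. CXCL1 had 1739, 2270 and 2415 at 4 h and 700, 875 and 1048 at 16 h, a fall of 1.29 ± 0.14 (adjusted p = 2.61e-09), and no array of 16 h reached the lowest of 4 h. CXCL2 fell by 1.29 ± 0.11 and CXCL3 by 1.26 ± 0.14. The neutrophil attractant CXCL8 had 6824, 8742 and 10051 at 4 h and 3137, 4182 and 6424 at 16 h, a fall of 0.97 ± 0.19 (adjusted p = 6.88e-05). CXCL6, dim at a median of 85 at 4 h, was at −0.60 ± 0.27 (adjusted p = 0.0787). It passed after quantile normalization (0.0423) and median centring (0.0403) and without insulin at 4 h in replicate 2 (0.0429). The fall came after 8 h, with list medians of 0.01 in the first and −1.30 in the second step. The 16 h levels were still above those of untreated cells, where CXCL1 had 359 and 336 and CXCL8 had 388 and 340. CXCL3 changed by 0.76 in untreated cells and its difference was −2.01 ± 0.28 (adjusted p = 8.13e-06); that of CXCL2 was −1.11 ± 0.22 (adjusted p = 0.00146). That of CXCL1, −1.12 ± 0.28 (adjusted p = 0.0157), did not pass without untreated replicate 1 of 4 h (−0.98) or either untreated array of 16 h (−1.07 and −1.16). With TNF 5 ng/ml alone as the low TNF side it did not pass either (−1.13, adjusted p = 0.122). That of CXCL8, −0.72 ± 0.37, did not pass (adjusted p = 0.413). Against the mean of untreated, EGF 100 ng/ml and insulin 500 ng/ml cells the CXCL8 difference passed (−0.90, adjusted p = 0.0276).

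The promoter of CXCL1, at chr4:73869143-73869392 on the forward strand, is shown as an example of a gene of this list, with its match to the consensus NF-kB site in capitals.
CXCL1: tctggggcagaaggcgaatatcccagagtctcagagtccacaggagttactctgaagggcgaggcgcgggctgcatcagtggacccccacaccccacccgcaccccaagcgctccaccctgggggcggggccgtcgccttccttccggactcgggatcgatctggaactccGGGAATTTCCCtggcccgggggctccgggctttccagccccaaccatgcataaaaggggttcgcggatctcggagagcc
The capitals are 2 overlapping matches, 1 on each strand, 79 to 69 bases before the start. Such a match was found in 4 of 5 windows of the list and in 5.91% of all windows.

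CCL20, which attracts T helper and dendritic cells, had 885, 1033 and 1484 at 4 h, 798, 2017 and 3742 at 8 h and 360, 524 and 774 at 16 h. It thus fell by 1.03 ± 0.23 over the whole interval (adjusted p = 0.00044), and the 8 h arrays spread over the widest range. In untreated cells it had 50.3 and 85 at 4 h and 310 and 242 at 16 h, and the difference in change was −2.90 ± 0.46 (adjusted p = 7.95e-05). Besides CCL20, the macrophage growth factor CSF1 fell among the other chemokines and cytokines, by 0.51 ± 0.18 (adjusted p = 0.0233). It lost its call without any of 5 arrays, with adjusted p up to 0.0922, the highest without insulin at 4 h in replicate 2. CCL22, a ligand of CCR4, rose by 2.40 ± 0.24 and CCL5, a T cell attractant, by 1.95 ± 0.18, from a median of 152 to 678. IL32 rose by 1.74 ± 0.16 and IL23A, a subunit of interleukin-23, by 1.31 ± 0.18. CX3CL1, a membrane-bound chemokine, had 1343, 1496 and 1743 at 4 h and 2982, 3406 and 3687 at 16 h, a rise of 1.13 ± 0.10 (adjusted p = 2.81e-11). In untreated cells CXCL9, a T cell attractant, and TNFSF10, the gene of the death ligand TRAIL, fell by 1.41 and 1.40. Under low TNF CXCL9 rose by 0.70 ± 0.08, and the differences were 2.10 ± 0.17 and 1.71 ± 0.19 (adjusted p = 2.02e-10 and 1.46e-07).

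NF-kB subunits and feedback genes moved little as a group: 9 of 21 rose, 2 fell and the median was 0.22. LTB, a member of the TNF family, rose by 2.02 ± 0.22 and RELB, a subunit of the non-canonical pathway, by 0.69 ± 0.12. The gene of the NF-kB inhibitor IkB-alpha, NFKBIA, had 5329, 7057 and 8807 at 4 h and 4310, 5639 and 6278 at 16 h and fell by 0.40 ± 0.11 (adjusted p = 0.00376), with overlapping groups. The deubiquitinase gene TNFAIP3 was at −0.01 ± 0.13 (adjusted p = 0.98), with medians of 1687, 1641 and 1685 at 4, 8 and 16 h. TNIP1, its partner, fell by 0.51 ± 0.08. The gene of the TNF receptor, TNFRSF1A, was at 0.35 ± 0.16 (adjusted p = 0.0784). It passed after quantile normalization (0.393, adjusted p = 0.0466), without replicate 1 of TNF with EGF at 4 h (0.559, adjusted p = 0.00218), without replicate 1 of TNF with insulin at 16 h (0.464, adjusted p = 0.0259) and with the replicate number as a block within time (adjusted p = 0.046).

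Complement genes rose under low TNF. The central component C3 had 44, 158 and 185 at 4 h, 249, 391 and 622 at 8 h and 717, 799 and 1034 at 16 h, and all 6 arrays of 16 h were above all 6 of 4 h. It rose by 2.73 ± 0.24 (adjusted p = 2.98e-11), against 36.4 and 25.4 at 4 h and 32.8 and 31.3 at 16 h in untreated cells and a difference of 2.68 ± 0.48 (adjusted p = 0.000515). Of 10 measured members 9 rose, with a median of 1.11 against −0.01 in untreated cells, in nearly equal steps of 0.59 and 0.67. The proteases C1S and C1R of the classical pathway rose by 2.27 ± 0.14 and 1.46 ± 0.13, and factor B (CFB) of the alternative pathway rose by 1.95 ± 0.10, from a median of 1006 to 3943. The change of 6 members was larger than in untreated cells (4 after median centring, 4 with TNF 5 ng/ml alone as the low TNF side, and 5 or 6 without any 1 array). That of CD55, which protects cells from complement, was smaller: it rose by 1.03 ± 0.11 under low TNF and by 2.58 in untreated cells, which started lower, at 483 and 818 against a median of 1787, and ended at 4107 and 3551 against 3930. In the list of adhesion, protease and matrix genes 10 of 17 rose and 2 fell. Among them VCAM1, the adhesion molecule for leukocytes, rose by 2.14 ± 0.23 (difference 2.50 ± 0.46, adjusted p = 0.000614) and the laminin chain LAMB3 by 1.58 ± 0.16.

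**Figure D2:**
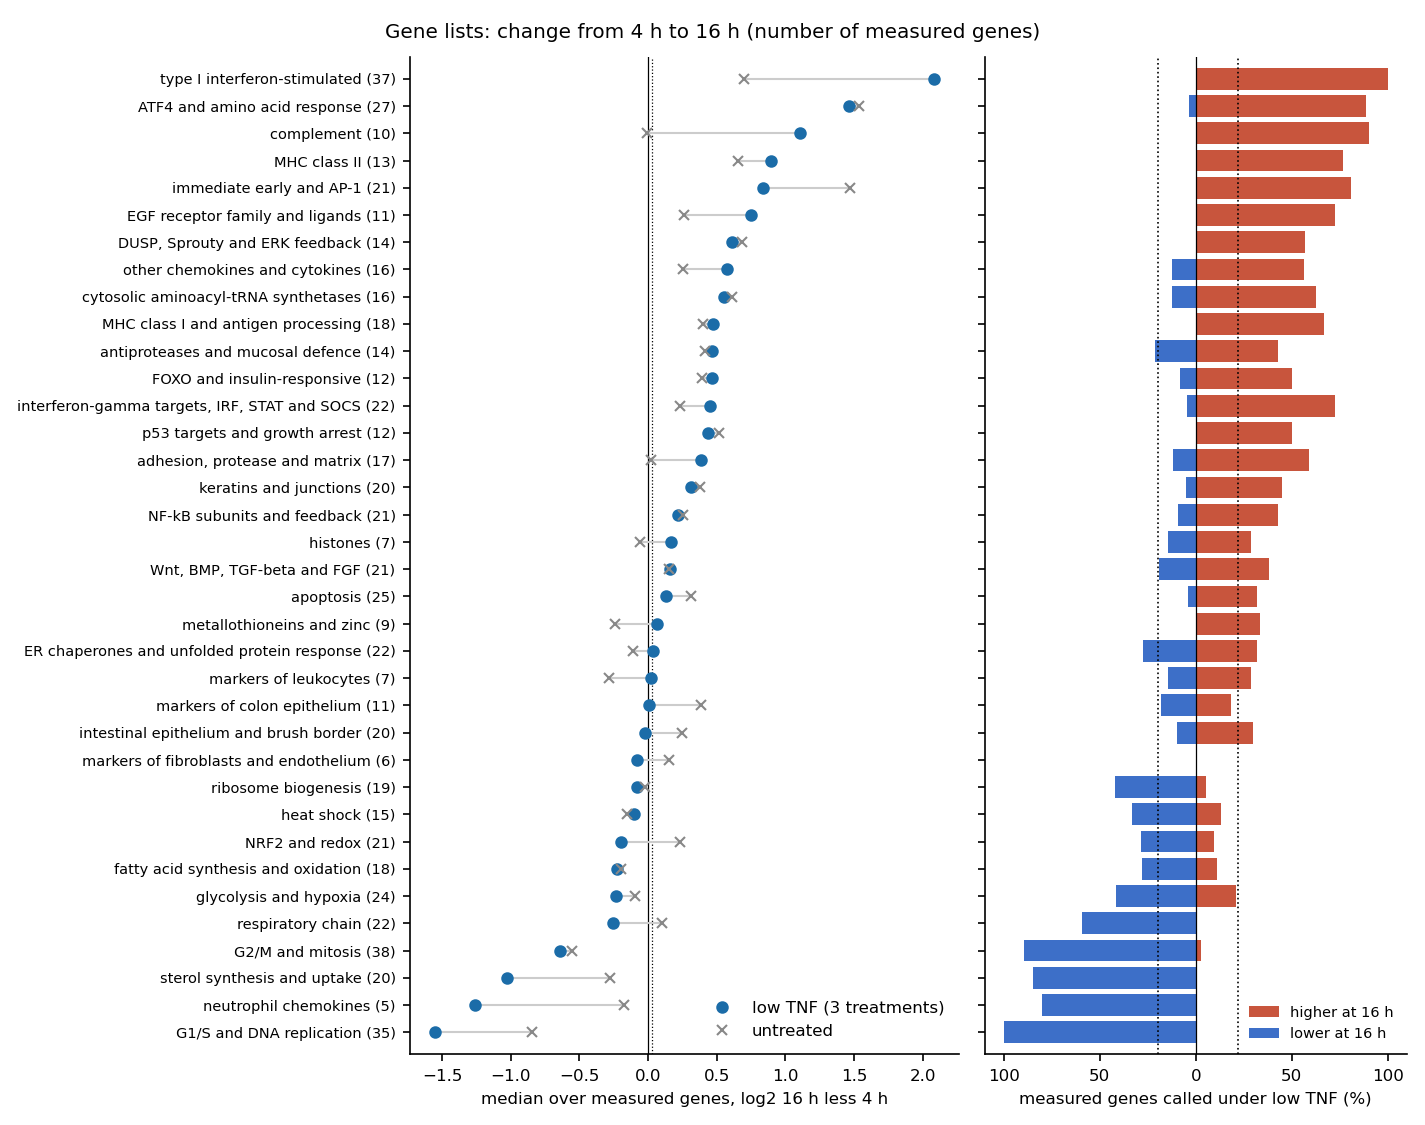
Left, median log2 change from 4 h to 16 h over the measured genes of 36 lists under low TNF (dots) and in untreated cells (crosses), with the median of all genes dotted; right, percent of the measured genes called higher or lower under low TNF, with the shares over all genes (22.0% and 19.9%) dotted. All 37 type I interferon-stimulated genes were called higher and all 35 G1/S genes lower.

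Immediate early genes rose under low TNF and in untreated cells. Of 21 measured genes of the list 17 rose and none fell, with a median of 0.84 against 1.47 in untreated cells, and the change of 5 was smaller than in untreated cells (3 without untreated replicate 1 of 16 h, 2 with TNF 5 ng/ml alone as the low TNF side). EGR1, an early transcription factor induced by ERK signalling, had 453, 544 and 648 at 4 h and 1001, 1298 and 2087 at 16 h, a rise of 1.26 ± 0.17 (adjusted p = 2.37e-07). Untreated cells started lower, at 171 and 241, and ended at 1204 and 1505, within the range of low TNF, and the difference was −1.39 ± 0.34 (adjusted p = 0.014). It did not pass without untreated replicate 1 of 4 h (0.142) or replicate 2 of 16 h (0.112), nor against the mean of untreated, EGF 100 ng/ml and insulin 500 ng/ml cells (−0.50, 0.254). With TNF 5 ng/ml alone as the low TNF side the EGR1 difference did not pass either (−1.30, adjusted p = 0.171). The growth factor-induced PHLDA1 rose by 2.63 ± 0.13 under low TNF and by 3.72 in untreated cells, and the stress factor ATF3 rose by 1.34 ± 0.09 and 2.77. FOS had 147, 222 and 289 at 4 h and 217, 409 and 521 at 16 h, with overlap and a rise of 0.75 ± 0.27 (adjusted p = 0.0237). This call was lost after quantile normalization (adjusted p = 0.0632), after median centring (0.0731) and without any of 5 arrays (up to 0.0863, without replicate 1 of TNF with EGF at 16 h). 

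Of 14 genes of ERK feedback 8 rose and none fell, the phosphatase genes DUSP5 by 1.67 ± 0.14, DUSP1 by 1.57 ± 0.15 and DUSP4 by 1.39 ± 0.31. DUSP6, an ERK phosphatase, had 1287, 1807 and 2338 at 4 h and 1305, 2119 and 2522 at 16 h, groups that overlapped almost fully, and was at 0.12 ± 0.19 (adjusted p = 0.65). In untreated cells it had 507 and 554 at 4 h and 1751 and 3228 at 16 h, and the difference was −2.02 ± 0.37 (adjusted p = 0.000709). Of 11 genes of the EGF receptor family and its ligands 8 rose. HBEGF, a ligand of the EGF receptor, had 92.6, 177 and 323 at 4 h and 684, 1021 and 1440 at 16 h and rose by 2.48 ± 0.24 (adjusted p = 1.99e-10). In untreated cells the rise was larger, from 26.7 and 29.8 to 2452 and 2152, so the difference of −3.35 ± 0.48 (adjusted p = 1.47e-05) was the largest of the lower ones among all genes. The ligand gene EREG rose by 1.02 ± 0.18. EGFR itself had 543, 728 and 1006 at 4 h, 394, 481 and 739 at 8 h and 860, 1159 and 1369 at 16 h, with a rise of 0.61 ± 0.15 (adjusted p = 0.00141). RGS2, which restrains G-protein signalling, went the opposite way to untreated cells. It had 1840, 1968 and 2251 at 4 h and 559, 615 and 736 at 16 h, a fall of 1.65 ± 0.10 (adjusted p = 4.82e-15), whereas untreated cells went from 1556 and 2090 to 4844 and 4324. The difference was −2.99 ± 0.20 (adjusted p = 6.07e-12). HS3ST1, a heparan sulphate sulphotransferase, likewise fell by 1.18 ± 0.13 and rose by 1.35 in untreated cells. ID1, a target of BMP signalling, rose by 0.89 ± 0.10 against 2.94 in untreated cells.

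**Figure D3:**
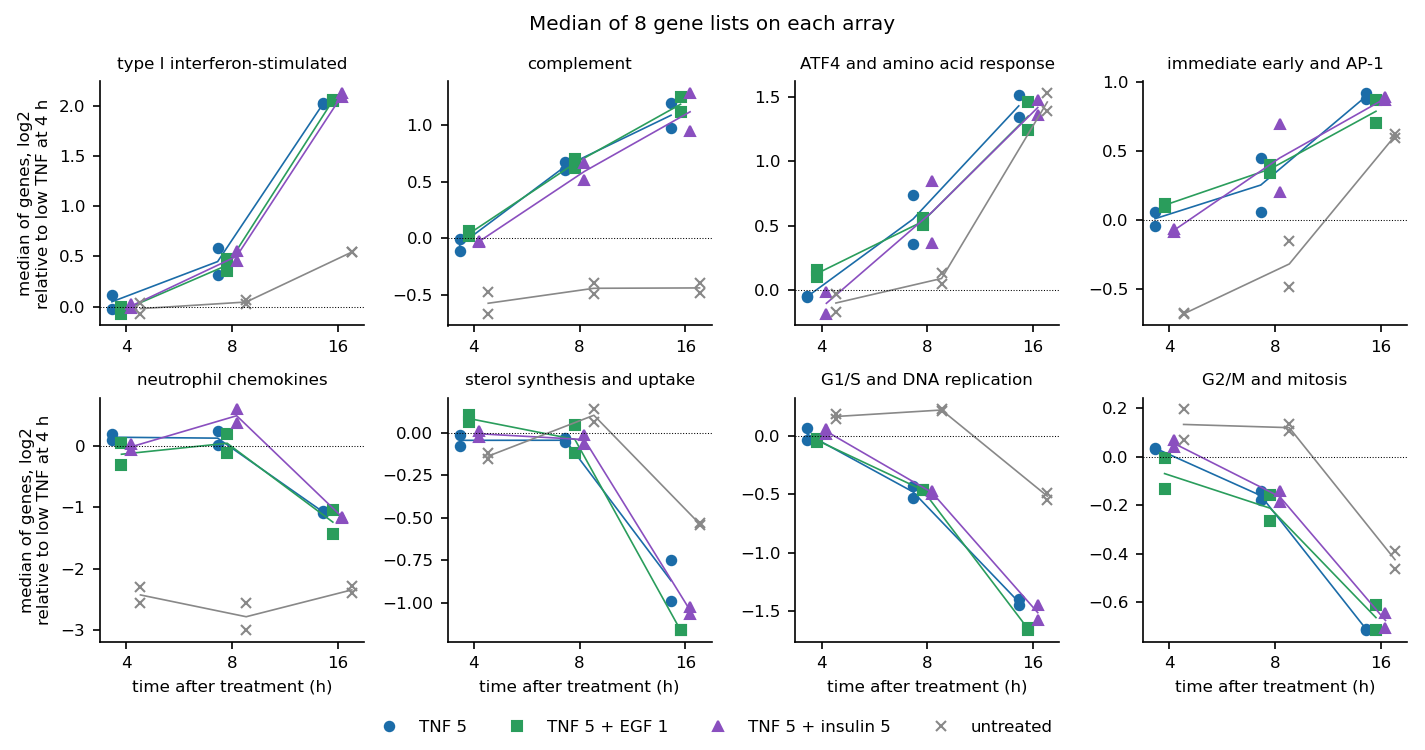
Median over the measured genes of 8 lists on each array at 4, 8 and 16 h, as log2 relative to the mean of the 6 low TNF arrays of 4 h; each point is an array and lines join means. The type I interferon-stimulated and neutrophil chemokine medians moved mainly after 8 h, and the ATF4 and amino acid response reached about the same level in untreated cells at 16 h.

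Genes of the ATF4 and amino acid response rose under low TNF and in untreated cells. Of 27 measured genes 24 rose, 17 of them at least 2-fold, and 1, ATF5, fell by 0.67 ± 0.13. The median was 1.46 against 1.54 in untreated cells, where 21 rose, as did 574 of all 8105 genes. CTH, the enzyme that makes cysteine from cystathionine, had 44.7, 122 and 189 at 4 h and 867, 1031 and 1249 at 16 h, a rise of 3.10 ± 0.23 (adjusted p = 3.55e-13). Untreated cells went from 118 and 220 to 1146 and 1148, and the difference of 0.36 ± 0.46 did not pass (adjusted p = 0.849). The glycine transporter SLC6A9 rose by 2.92 ± 0.41, TRIB3, an inhibitor of AKT, by 2.66 ± 0.09 and asparagine synthetase (ASNS) by 1.58 ± 0.10, from a median of 3665 to 11418. The difference was called for 6 members: VLDLR, a lipoprotein receptor, was higher by 1.25 ± 0.26 (not without untreated replicate 1 of 16 h, adjusted p = 0.0722), and DDIT4, CHAC1, VEGFA, CEBPB and ATF4 itself were lower. Without any 1 untreated array 2 or 3 members were called lower, and with TNF 5 ng/ml alone as the low TNF side 1 was. DDIT4, an inhibitor of mTOR, with a difference of −1.67 ± 0.28, was among them each time. CHAC1, a glutathione-degrading enzyme, had 707, 867 and 1393 at 4 h and 2922, 3601 and 3874 at 16 h, against 220 and 244 and then 4969 and 2891 in untreated cells, a difference of −2.09 ± 0.40 (adjusted p = 0.00117). That call was lost with TNF 5 ng/ml alone in place of the 3 treatments (−1.88, adjusted p = 0.0512). So were those of VLDLR (1.05, adjusted p = 0.126) and ATF4 (−0.69, 0.447). The ATF4 call was also lost with no filter on low signal (−0.83, adjusted p = 0.0748), after quantile normalization (−0.80, 0.0518) and with no intensity trend (−0.83, 0.0638). It was lost as well without any of several single arrays, for example untreated replicate 2 of 4 h (−0.60). The promoter of ASNS at chr7:97872409-97872658 on the reverse strand, the first of 2 in the table, is printed because it holds the CCAAT/enhancer-binding protein and ATF response element (CARE), searched as TGATGNAA on both strands and set in capitals.
ASNS: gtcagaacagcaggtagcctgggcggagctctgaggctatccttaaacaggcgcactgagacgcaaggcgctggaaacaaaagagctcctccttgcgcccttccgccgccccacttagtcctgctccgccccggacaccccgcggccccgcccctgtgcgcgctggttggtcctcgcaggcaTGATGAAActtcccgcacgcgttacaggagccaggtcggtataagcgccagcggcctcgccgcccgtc
The match was 68 to 61 bases before the start. The element was found in 6 of 22 members in the table (27.3%) and in 4.46% of all 27305 genes there, or in 16.7% of the members' windows and 3.62% of all windows.

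Of 16 cytosolic aminoacyl-tRNA synthetases 10 rose, with AARS1 at 1.45 ± 0.14 and SARS1 at 1.19 ± 0.10, and 2 fell, VARS1 by 0.82 ± 0.13 and HARS1 by 0.22 ± 0.07 (lost without replicate 2 of TNF with EGF at 4 h, adjusted p = 0.0824, and with only the 12 arrays, 0.0559); none differed from untreated cells. ER chaperones and genes of the unfolded protein response went both ways, 7 higher and 6 lower of 22. HERPUD1, of ER-associated degradation, rose by 1.23 ± 0.12 and the chaperone gene SDF2L1 fell by 1.24 ± 0.13. Among 12 p53 targets and growth arrest genes 6 rose. GADD45A, a growth arrest gene, had 117, 131 and 266 at 4 h and 931, 1472 and 1541 at 16 h, a rise of 3.07 ± 0.21 (adjusted p = 3.91e-14), and the stress cytokine GDF15 rose by 2.72 ± 0.13. CDKN1A, which encodes the cyclin-dependent kinase inhibitor p21, had 476, 514 and 825 at 4 h and 1098, 1158 and 1281 at 16 h and rose by 1.00 ± 0.19 (adjusted p = 4.12e-05). In untreated cells it went from 43.9 and 180 to 643 and 694, from a lower start, and the difference was −1.71 ± 0.37 (adjusted p = 0.00469). Without untreated replicate 1 of 4 h, the array at 43.9, it was −0.82 and did not pass. With TNF 5 ng/ml alone as the low TNF side it was −1.54 (adjusted p = 0.103). Against the mean of untreated, EGF 100 ng/ml and insulin 500 ng/ml cells it was −0.29 (adjusted p = 0.64).

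Of 38 G1/S and DNA replication genes 36 were on the array and 35 passed the filter. All 35 fell, 28 of them at least 2-fold and 32 without overlap, with a median of −1.55 against 0.03 over all genes. GINS2, a subunit of the replicative helicase, had 757, 969 and 1162 at 4 h and 72, 134 and 192 at 16 h, a fall of 2.78 ± 0.19 (adjusted p = 4.88e-14). Untreated cells stayed at 929 and 1091 at 4 h and 825 and 973 at 16 h, and the difference was −2.62 ± 0.38 (adjusted p = 2e-05). The ribonucleotide reductase subunit RRM2 had 5835, 6497 and 7681 at 4 h, 3357, 4119 and 4953 at 8 h and 1197, 1489 and 1670 at 16 h, so the 3 times did not overlap. It fell by 2.21 ± 0.11 (adjusted p = 7.04e-18), against 0.84 in untreated cells (difference −1.38 ± 0.21, adjusted p = 5.36e-05). The phosphatase CDC25A, which admits cells to S phase, fell by 2.59 ± 0.32, thymidylate synthase (TYMS) by 2.28 ± 0.16, GINS1 by 2.24 ± 0.15 and the helicase subunit MCM6 by 2.04 ± 0.10. The list fell by a median of 0.47 before 8 h, with 21 members called lower (338 of all 8105 genes), and by 0.98 after it. Over all 8105 genes 383 fell from 4 h to 16 h in untreated cells, and the difference in change was called lower in 2.15%. In untreated cells 21 of 35 also fell, with a median of −0.84, and the fall was larger under low TNF for 13 members and smaller for none (8 without untreated replicate 1 of 16 h, 5 with TNF 5 ng/ml alone as the low TNF side). Other genes of DNA repair and nucleotide handling among the 12 largest falls were the uracil glycosylase UNG, which fell from a median of 1138 to 118 (adjusted p = 1.02e-15), the oxidised nucleotide hydrolase NUDT1, at −2.97 ± 0.18, and the recombination factor RAD54L, at −2.49 ± 0.28. NUDT1 also fell more than in untreated cells, by a difference of −2.08 ± 0.36 (adjusted p = 0.000367).

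The promoters of GINS2 (chr16:85688955-85689204) and MCM6 (chr2:135876444-135876693), both on the reverse strand, are shown with the E2F element in capitals, searched as TTTGGCGC or TTTCCCGC on both strands.
GINS2: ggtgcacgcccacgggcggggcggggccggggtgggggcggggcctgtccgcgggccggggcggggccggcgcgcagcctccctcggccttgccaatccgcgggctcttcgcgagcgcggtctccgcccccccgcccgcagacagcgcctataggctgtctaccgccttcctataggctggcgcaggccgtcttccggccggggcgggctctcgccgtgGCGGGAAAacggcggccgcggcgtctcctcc
MCM6: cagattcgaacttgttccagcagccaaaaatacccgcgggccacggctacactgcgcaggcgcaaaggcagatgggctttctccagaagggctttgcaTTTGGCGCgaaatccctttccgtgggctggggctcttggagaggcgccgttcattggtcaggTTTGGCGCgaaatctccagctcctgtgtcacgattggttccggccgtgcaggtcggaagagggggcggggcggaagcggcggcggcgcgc
GINS2 held 1 match, 31 to 24 bases before the start, and MCM6 held 2, at 152 to 145 and 90 to 83. It was found in 16 of the 32 list members in the table and in 2.75% of all genes there, or in 16 of the members' 40 windows and 2.27% of all windows.

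Of 38 G2/M genes 34 fell and 1 rose, and the median was −0.64 against −0.55 in untreated cells. Cyclin A2 (CCNA2) fell by 1.63 ± 0.15, the spindle checkpoint gene MAD2L1 by 1.55 ± 0.20 and FOXM1, the transcription factor of the G2/M programme, by 1.19 ± 0.12; the phosphatase gene CDC25B rose by 0.32 ± 0.10 (0.23, adjusted p = 0.0887, after median centring). Over all genes the difference in change from untreated cells was called lower in 2.15%. Here it was called for 2 of 38 members, the survivin gene BIRC5 and the spindle gene PRC1, both lower. Neither call held when untreated replicate 1 of 16 h (adjusted p = 0.0978 and 0.303) or replicate 2 of 4 h (0.432 and 0.133) was left out, and no member was called after median centring or with TNF 5 ng/ml alone as the low TNF side. The CHR element (TTTGAA on either strand) was found in 21 of 32 members in the table (65.6%) and in 18.2% of all genes there, or in 57.1% of the members' windows and 15.2% of all windows.

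Sterol genes fell mainly between 8 h and 16 h. Of 20 measured genes of sterol synthesis and uptake 17 fell and none rose, with a median of −1.03. The medians were −0.04 before and −1.02 after 8 h, where 2 and 16 genes fell. Of all 8105 genes 338 and 1281 fell in these 2 steps. INSIG1, which holds the sterol sensor in the ER and is itself a target of SREBP, had 2589, 3419 and 3797 at 4 h, 1620, 1876 and 2298 at 8 h and 216, 313 and 400 at 16 h. Its fall of 3.38 ± 0.21 (adjusted p = 4.1e-15) was the largest of all genes. MSMO1, a sterol methyl oxidase, fell by 2.68 ± 0.17, HMGCS1, which makes HMG-CoA, by 2.26 ± 0.18 and IDI1, the isopentenyl diphosphate isomerase, by 2.09 ± 0.14. In untreated cells the list's median was −0.28 and 6 genes fell, INSIG1 by 2.70, and the difference for INSIG1 did not pass (−0.68 ± 0.42, adjusted p = 0.536). It was lower for 6 members, but for 2 without untreated replicate 1 of 4 h, for 3 without untreated replicate 1 of 16 h and for 0 with TNF 5 ng/ml alone as the low TNF side. That of EBP was −1.57 ± 0.31 (adjusted p = 0.00139), and −0.71 (0.0963) without untreated replicate 2 of 4 h. Of 18 genes of fatty acid metabolism 2 rose and 5 fell, fatty acid synthase (FASN) by 1.53 ± 0.18 and ATP-citrate lyase (ACLY) by 1.15 ± 0.13. FABP5, a fatty acid carrier outside these lists, fell by 3.06 ± 0.17 from 2168, 2954 and 3377 to 227, 333 and 443.

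Genes of energy metabolism changed by small amounts. Of 22 respiratory chain genes 13 fell and none rose, with a median of −0.26 and 1.22 ± 0.13 as the largest fall, that of SDHA; in untreated cells 1 fell, and no difference was called. Of 24 genes of glycolysis and hypoxia 10 fell and 5 rose, among the latter adrenomedullin (ADM) by 1.33 ± 0.11 and NDRG1 by 1.16 ± 0.13, with differences from untreated cells of 1.51 ± 0.23 and 1.18 ± 0.26. That of NDRG1 did not pass without untreated replicate 1 of 4 h or of 16 h (adjusted p = 0.0755 and 0.0645). With TNF 5 ng/ml alone as the low TNF side the NDRG1 difference did not pass either (1.20, adjusted p = 0.0532). Of 19 ribosome biogenesis genes 8 fell and 1 rose. Heat shock genes had 5 of 15 lower, with the mitochondrial chaperonin HSPE1 at −2.05 ± 0.19 and HSPB1 at −1.63 ± 0.12, and 2 higher. The collagen chaperone SERPINH1, in none of the lists, fell by 3.10 ± 0.44 from a median of 397 to 29.4. NRF2 and redox genes had 6 of 21 lower and 2 higher; catalase (CAT) fell by 0.67 ± 0.12 and the thioredoxin reductase TXNRD1 rose by 0.59 ± 0.08.

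Among 25 apoptosis genes 8 rose and 1, CASP6, fell by 1.12 ± 0.15. CASP8, the initiator caspase downstream of the TNF receptor, had 903, 946 and 1370 at 4 h and 1946, 2146 and 2392 at 16 h, a rise of 1.08 ± 0.11 (adjusted p = 3.16e-10) without overlap, and 0.87 in untreated cells. The death receptor adaptor TRADD rose by 0.69 ± 0.19 and the survival gene BCL2L1 by 0.69 ± 0.16. Of 20 genes of the intestinal epithelium and brush border 6 rose and 2 fell. VIL1, the microvillus protein villin, had 386, 507 and 551 at 4 h and 89.5, 136 and 236 at 16 h, a fall of 1.70 ± 0.18 (adjusted p = 2.17e-09), and was at −0.24 in untreated cells. The difference of −1.45 ± 0.36 (adjusted p = 0.0154) did not pass without any 1 of the 4 untreated arrays (adjusted p from 0.0503 to 0.12). With TNF 5 ng/ml alone as the low TNF side the VIL1 difference did not pass either (−1.16, adjusted p = 0.333). The galectin gene LGALS4 rose by 0.58 ± 0.09. GATA6, a transcription factor of the gut epithelium, was at 0.41 ± 0.17 (adjusted p = 0.0539) and passed without any of 4 arrays (adjusted p down to 0.00727, without replicate 2 of TNF with EGF at 4 h) and with the replicate number as a block over all times (0.0473) or within time (0.00198). Among the other genes of the 12 largest rises and falls were the inositol kinase ITPKA, at 3.45 ± 0.40 from a median of 22.2 to 345, the arginine methyltransferase PRMT7, at −2.81 ± 0.36, and the calmodulin-binding NRGN, at −2.43 ± 0.35. The 4 h medians of ITPKA and of RSAD2 were below the filter's signal of 138.9, so the filter may have taken in either gene by its 16 h level.

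The time course was split at 8 h. From 4 h to 8 h 715 genes were called (8.82%) and from 8 h to 16 h 2694 (33.2%), by the same test. The 8 h arrays spread more than the others, with a 10th percentile of signal of up to 21.86 against 14.24 at 4 h and 15.36 at 16 h. For TNF alone, with EGF and with insulin it was 12.97, 11.97 and 11.04 in replicate 1 and 21.86, 16.46 and 12.52 in replicate 2. The log2 ACTB 3′ to 5′ ratio was −0.26, −0.22 and −0.18 in replicate 1 and 0.34, 0.17 and 0.32 in replicate 2. Both steps rest on these arrays. Median centring turned the share of higher probe sets in the first step from 52.5% to 33.2% (246 higher, 494 lower), at a count of 740 in place of 1010. ITPKA and IFNB1 were called in the second step and not in the first, at 0.05 and then 3.40 and at −0.03 and then 2.75. Both were dim at 4 h, and the filter may have taken in ITPKA by its 16 h level, as it did IFNB1. C3 and IDO1 were called in both, at 1.74 and then 0.99 and at 1.28 and then 0.32. Among the falls PRMT7 was at −1.70 and then −1.10, and NUDT1 at −0.15 and then −2.82.

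**Figure D4:**
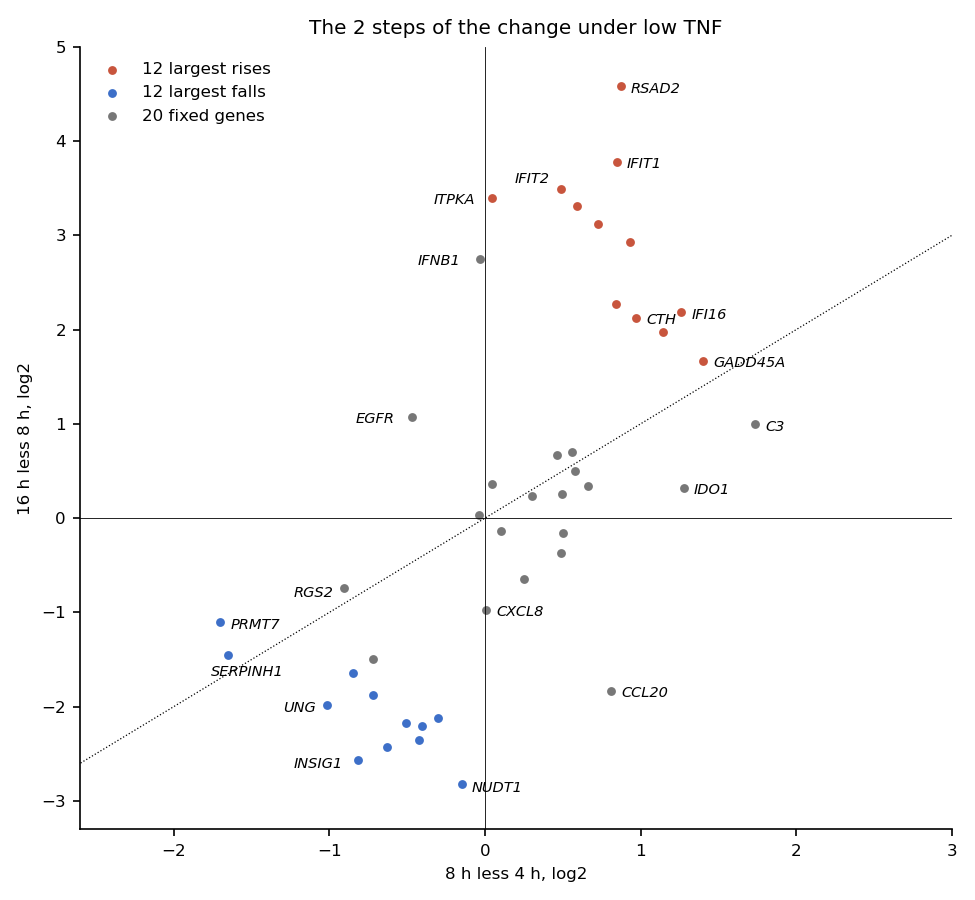
Log2 change from 4 h to 8 h (x axis) and from 8 h to 16 h (y axis) under low TNF for the 12 largest rises, the 12 largest falls and 20 genes fixed by name, with the line of equal steps dotted. RSAD2 lies at 0.87 and 4.58, C3 at 1.74 and 0.99, and CCL20 at 0.81 and −1.84. Both steps share the 8 h arrays.

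Whether the change over time differed among TNF alone, with EGF and with insulin was tested for each probe set with an F test of 2 degrees of freedom. In limma 0 of 13422 probe sets passed, with a lowest adjusted p of 1, and 369 (2.75%) had an unadjusted p under 0.05, fewer than 1 in 20. Within each treatment, with 2 arrays per time, 2137 probe sets were called for TNF alone, 2795 with EGF and 2574 with insulin. RSAD2 rose by 5.25, 5.84 and 5.28 in these treatments, IFIT1 by 4.40, 5.00 and 4.48 and C3 by 2.18, 2.82 and 3.19. GINS2 was at −2.31, −3.17 and −2.87 and INSIG1 at −3.14, −3.56 and −3.45. HBEGF rose by 2.98, 1.49 and 2.95. Not passing the test does not show that the treatments acted alike.

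The same interval in untreated cells gave 957 called genes (11.8%), from 2 arrays per time. The difference of the changes was called for 457 probe sets, 229 higher and 228 lower, or 159 and 174 genes. Of the 698 genes that changed at least 2-fold under low TNF, 168 differed: 93 rose more, 63 fell more, and 12 rose less than in untreated cells. The change and the difference share the low TNF arrays, so their common direction is partly built in. The 8 largest positive differences were those of IFIT1, RSAD2, IFIT2, IFI16, IFNB1, LAMP3, MX2 and C3, from 3.93 to 2.68, and the 8 largest negative ones those of HBEGF, RGS2, CCL20, GINS2, HS3ST1, CHAC1, NUDT1 and ID1, from −3.35 to −2.05. Of these 16, HBEGF, CHAC1 and ID1 rose under low TNF and by more in untreated cells. The count of 457 was 231 without replicate 1 of untreated cells at 16 h. With the deposited scaling 50.1% of the 457 were higher, and after median centring 40.6% of 283 (115 higher, 168 lower). The count was 148 with TNF 5 ng/ml alone as the low TNF side, where C3 no longer passed (2.13, adjusted p = 0.0739).

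**Figure D5:**
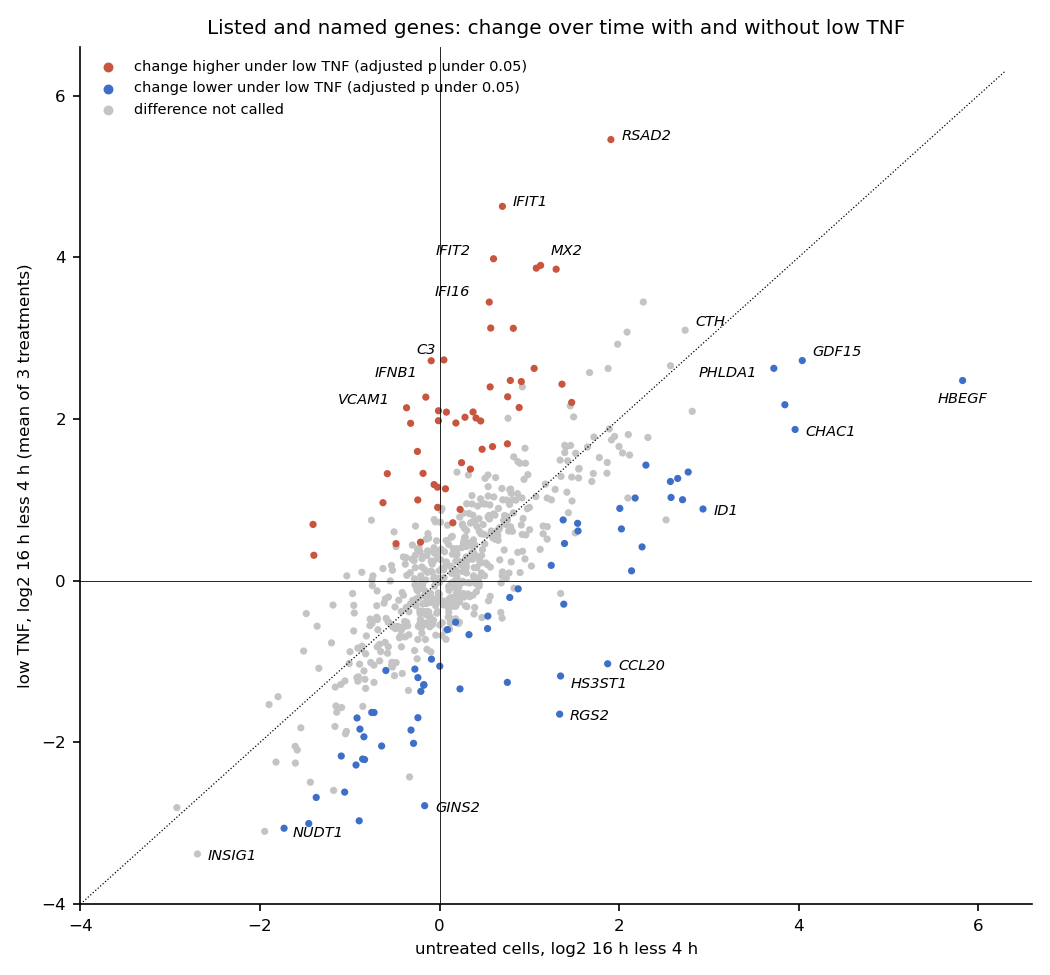
Log2 change from 4 h to 16 h in untreated cells (x axis, 2 arrays per time) and under low TNF (y axis, 6 arrays per time) for the named and listed genes, with equality dotted. RSAD2 lies at 1.91 and 5.46, RGS2 at 1.34 and −1.65, HBEGF at 5.83 and 2.48, and INSIG1 at −2.70 and −3.38.

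Cells given TNF at 100 ng/ml alone went through the interval with few differences from low TNF: 30 genes (0.370%) or 38 probe sets were called, 21 higher and 17 lower. IFNB1 rose more at the high dose, from 21.9 and 11.4 to 1244 and 889, a difference of 2.49 ± 0.52 (adjusted p = 0.022). The filter took in this gene by its 16 h level, and with no filter on low signal the adjusted p was 0.00429. CCL5 went from 361 and 266 to 4479 and 3746, a difference of 1.73 ± 0.36 (adjusted p = 0.020). BMP4, a secreted growth factor, had medians of 182 and 133 under low TNF and rose from 19.4 and 12.1 to 364 and 256 at the high dose (3.91 ± 0.66, adjusted p = 0.0039). ODC1, the first enzyme of polyamine synthesis, was at −0.07 ± 0.08 under low TNF and fell from 5813 and 5653 to 2466 and 2496 at the high dose (−1.13 ± 0.17, adjusted p = 0.00068). EFNB2, an ephrin, rose by 1.13 ± 0.10 under low TNF and was at −0.08 at the high dose (difference −1.21 ± 0.21, adjusted p = 0.0039, lost without replicate 2 of 4 h or of 16 h, 0.0778 and 0.0532, and after median centring, 0.121). ID1 rose more at the high dose, by a difference of 1.55 ± 0.21 (adjusted p = 0.00017). For the interferon-stimulated RSAD2 and IFIT1 the difference was 0.61 ± 0.37 and −0.15 ± 0.31 and did not pass (adjusted p = 0.85 and 1). These calls rest on 4 arrays of the high dose. The count was 7 and 12 without replicate 1 or 2 of 4 h, 24 and 4 without replicate 1 or 2 of 16 h, 24 without TNF 5 ng/ml alone at 16 h in replicate 2, and 2, both higher, after median centring. Without 1 of these 4 arrays IFNB1 had adjusted p of 0.0902 to 0.191 and CCL5 of 0.0671 to 0.178. IFNB1 did not pass with a pseudocount of 1 (0.352), and neither IFNB1 nor CCL5 passed after median centring (0.117 for both) or against TNF 5 ng/ml alone (0.155 and 0.125), whereas BMP4 and ID1 passed in every alternative run, and ODC1 in all but median centring (0.064).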

How the data were processed

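RNA of 54 HT-29 cultures (9 treatments, 3 times, 2 biological replicates) was hybridised to 1-colour Affymetrix arrays, and the authors deposited linear signal intensity per probe set, computed with MAS5 per the submitters' processing notes. The trimmed mean of each deposited array was 500.2, so the arrays had been scaled to a common level; other upstream steps are not given in the sources used here. Of 22283 probe sets 68 controls were left out, 19065 of the rest had 1 gene symbol in the platform annotation, and 13422 passed the filter. Intensities were taken as log2 of signal plus 12.49, the 10th percentile of all values.

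In limma 3.58.1 (R 4.3.3) 27 group means were fitted to all 54 arrays with an intensity trend (27 residual degrees of freedom, median prior 6.45), and the comparison averaged the 3 treatments. The code of the fit was run on simulated signals with independent noise and no shared replicate effect. That run bears on the code and not on the calls in these data. Apart from the unadjusted count of the F test, every p in the text is limma's, adjusted by Benjamini-Hochberg, over 13422 probe sets in the main fit. Settings that redo or drop the filter were adjusted over the probe sets they kept, which were all 22215 with no filter on low signal. Named genes are the 12 largest rises and falls with the same sign in 6 of 6 pairs of arrays, 20 fixed genes, up to 5 called members of each list, and the 8 and 6 largest differences each way from untreated cells and from TNF 100 ng/ml. The members and lists were chosen with earlier results of these data known. The replicate numbers were taken from the labels. Where an array left out leaves a group with 1 array, it is assumed to vary like the other groups. Promoter windows are RefSeq's (GRCh38.p14); 508 of 631 measured list genes were in that table. Values of some genes that the rule names are not reported here. Pseudocounts, the filter, scaling, a replicate block, an RNA quality covariate, the trend and single arrays were varied.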

Additional observations from a re-analysis of the deposited data

Results flagged for a closer look

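Among 96 sets of 6 low TNF arrays tested, 6 had an array far from the other 5, and chance gives about 1 in 20. These were GADD45A at 4 h, with 266 in TNF with EGF replicate 2 (nearest 156.8), INSIG1 at 4 h, with 2589 in TNF alone replicate 2 (nearest 3314), and NUDT1 at 4 h, with 251 in TNF with insulin replicate 1 (nearest 440.6). The others were CDC25A at 16 h, with 54.6 in TNF alone replicate 2 (nearest 24.85), CASP8 at 4 h, with 1370 in TNF alone replicate 2 (nearest 1041), and TNFRSF1A at 16 h, with 1425 in TNF with insulin replicate 1 (nearest 2126).

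The change from 4 h to 16 h differed between low TNF and untreated cells for 457 probe sets by limma's test of the difference. The named log2 differences were 3.93 for IFIT1, 3.55 for RSAD2, 3.38 for IFIT2, 2.89 for IFI16, 2.81 for IFNB1, 2.79 for LAMP3, 2.77 for MX2 and 2.68 for C3. Lower ones were −3.35 for HBEGF, −2.99 for RGS2, −2.90 for CCL20, −2.62 for GINS2, −2.53 for HS3ST1, −2.09 for CHAC1, −2.08 for NUDT1 and −2.05 for ID1.

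The change differed between TNF at 100 ng/ml alone and low TNF for 38 probe sets by the same test. The differences were 3.91 for BMP4, 2.49 for IFNB1, 2.01 for CHAC1, 1.73 for CCL5, 1.64 for the zinc exporter SLC30A1 and 1.63 for DDIT4. Lower ones were −3.05 for CRYBG2, −1.60 for EFNA1, −1.48 for FAM149A, −1.21 for EFNB2, −1.13 for ODC1 and −1.02 for ITPKC. Of these 12, BMP4 passed in every alternative run.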

How the results depend on the processing

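The change from 4 h to 16 h kept its scale: 4921 to 6315 probe sets were called over 11 other settings and 4725 to 4934 without any 1 array, against 5256. List counts moved little (35 to 37 type I interferon-stimulated genes, 34 or 35 G1/S genes, 15 to 18 sterol genes), and no named gene changed direction with a call. Of 284 results of single genes 235 kept their call in every setting. The counts of differences were less stable, and the cause was not tested. Against untreated cells 283 probe sets were called after median centring, 148 with TNF 5 ng/ml alone, 955 against the mean of untreated, EGF 100 ng/ml and insulin 500 ng/ml cells, and 231 to 458 without 1 array. Against TNF 100 ng/ml 2 were called after median centring, 72 with the ACTB covariate, 11 with TNF 5 ng/ml alone and 4 to 38 without 1 array. From 4 h to 8 h 693 to 934 were called without 1 array, and from 8 h to 16 h 3546 to 3980. Differences among the treatments were called for 0 or 1 probe set without 1 array.

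The main fit did not treat the replicate numbers as pairs. Of 15 pairs of low TNF groups 8 had a correlation of same-numbered deviations over 0.1 (median 0.136, from −0.079 to 0.278). These were 3 of 3 pairs within 16 h (0.158 to 0.278), 2 of 3 within 4 h (0.09 to 0.222) and 3 of 9 across the times. Same-numbered arrays of the same time thus mostly deviated together, and the main fit had no term for this. The rule for the largest rises and falls used pairs of the same treatment and replicate number only to compare directions. With the replicate block over all times 1 probe set differed among the treatments and 70 differed from TNF 100 ng/ml. With the replicate block within time the counts were 1 and 142, 973 against untreated cells and 1848 from 4 h to 8 h. The main fit gave 0, 38, 457 and 1010 for these. The number of arrays and the signal over background limit dim genes such as IFNB1, whose difference from TNF 100 ng/ml also depended on the pseudocount; the 2 arrays per time of untreated cells and of the high dose limit the differences.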

Other observations

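The counts of further lists are to be read against the shares over all genes, 22.0% higher and 19.9% lower. Of 20 keratin and junction genes 9 rose (45%) and 1 fell (5%): KRT7, a keratin of simple epithelia, rose by 2.02 ± 0.19, the desmosome gene DSP by 1.14 ± 0.13 and the tight junction gene TJP1 by 1.05 ± 0.07, while the claudin CLDN3 fell by 0.88 ± 0.20. The untreated change of DSP was 0.07. Of 12 FOXO and insulin-responsive genes 6 rose (50%) and 1 fell (8.33%). TXNIP, an inhibitor of thioredoxin, rose by 2.62 ± 0.15 and the mitochondrial enzyme gene PCK2 by 1.78 ± 0.11, against 1.88 and 1.95 in untreated cells, and no member differed from untreated cells.

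Of 14 antiprotease and mucosal defence genes 6 rose (42.9%) and 3 fell (21.4%). The elastase inhibitor PI3 fell by 1.36 ± 0.16, and the mucin MUC1 and the iron-binding LCN2 rose by 1.31 ± 0.17 and 1.00 ± 0.10. Of 7 measured histone genes, H2AC6 and H2BC21 rose, by 2.01 ± 0.23 and 0.87 ± 0.18, and H2AZ1 fell by 0.73 ± 0.10, which is 28.6% higher and 14.3% lower, near the shares over all genes. Of 9 metallothionein and zinc genes 3 rose (33.3%) and none fell, with SLC30A1 at 1.29 ± 0.18. Among 21 genes of Wnt, BMP, TGF-beta and FGF signalling 8 rose (38.1%) and 4 fell (19%). The Wnt inhibitor DKK1 rose by 1.43 ± 0.10 under low TNF and by 2.30 in untreated cells, and the BMP antagonist SOSTDC1 fell by 1.80 ± 0.25. The sterol response element (TCACNCCAC, both strands) was found in the promoter windows of 1 of 18 sterol genes in the RefSeq table and of 1.39% of all genes there.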
